A study of Mus musculus with 15 samples.

Results

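The genes described here carry symbols of the subunits of oxidative phosphorylation, the chain of protein complexes in the mitochondrial inner membrane that turns the energy of nutrients into ATP. A symbol does not make each a structural subunit: Cox7a2l is a factor that joins complexes III and IV. The genes were taken by symbol from the protein-coding genes of GENCODE M21, with no measured value used: Nduf subunits, Sdha to Sdhd, Uqcr genes and Cyc1, Cox4 to Cox8 genes, Atp5 genes, and the mitochondrially encoded mt-Nd, mt-Co, mt-Cytb and mt-Atp genes. This gave 99 genes of 34989 with counted transcripts, 86 in the nuclear genome and 13 in mitochondrial DNA. By complex, 44 belonged to complex I, 4 to complex II, 10 to complex III, 21 to complex IV and 20 to complex V. A filter on low counts kept 95 of them, 83 nuclear and 12 mitochondrial, among 15147 genes tested.

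RNA was sequenced from 15 libraries of wild-type mouse neural progenitor cells, dividing precursors of neurons and glia kept with FGF2, EGF and heparin. All cells received a plasmid carrying EGFP and an shRNA, a hairpin transcript that is processed into a small RNA against a chosen target, and GFP-positive cells were sorted after 3 days. There were 5 groups of 3 libraries: shLINE_Orf1, shLINE_Orf2 and shLINE_MdV_I, with shRNAs against LINE-1 retrotransposons, then shLINE_Orf1+LINE-1, which had the shLINE_Orf1 shRNA and an added full-length LINE-1, and shControl. By the design text the shRNAs were aimed at young and at old LINE-1, and the labels do not assign shLINE_Orf2 or shLINE_MdV_I to either. The shRNA came from a plasmid, so each library holds the sorted part of a culture. The labels do not say that replicates came from separate cultures, so p-values measure the spread between these libraries, which may be technical.

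Electrons from NADH enter the chain at complex I (NADH dehydrogenase) and those from succinate at complex II (succinate dehydrogenase). They pass through complex III (cytochrome bc1) to complex IV (cytochrome c oxidase), which reduces oxygen, and complex V (ATP synthase) makes ATP from the proton gradient. Complex II is built from nuclear genes alone, whereas the other complexes mix nuclear subunits with core subunits encoded in mitochondrial DNA, which is transcribed separately by its own RNA polymerase. Several complex IV subunits exist as paralogs used in different tissues: Cox6a2, Cox7a1 and Cox8b are the forms of heart and skeletal muscle in the mouse, and Cox6a1, Cox7a2 and Cox8a their broadly expressed counterparts.

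The 250 bases upstream of the annotated start are shown for a pair of such paralogs in 2 families, because Cox8b was the member called between groups. Sequences are from RefSeq on GRCm38.p6, written 5′ to 3′ on the strand of the gene, with CG dinucleotides in capitals. They lie at chr7:140900447-140900696 on the minus strand for Cox8b, chr19:7217617-7217866 on the minus strand for Cox8a, chr7:30183921-30184170 on the plus strand for Cox7a1 and chr9:79759854-79760103 on the minus strand for Cox7a2.
Cox8b: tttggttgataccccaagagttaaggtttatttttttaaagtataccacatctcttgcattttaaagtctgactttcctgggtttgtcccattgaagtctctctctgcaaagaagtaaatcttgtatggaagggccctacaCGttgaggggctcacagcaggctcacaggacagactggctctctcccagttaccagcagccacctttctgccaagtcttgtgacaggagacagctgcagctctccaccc
Cox8a: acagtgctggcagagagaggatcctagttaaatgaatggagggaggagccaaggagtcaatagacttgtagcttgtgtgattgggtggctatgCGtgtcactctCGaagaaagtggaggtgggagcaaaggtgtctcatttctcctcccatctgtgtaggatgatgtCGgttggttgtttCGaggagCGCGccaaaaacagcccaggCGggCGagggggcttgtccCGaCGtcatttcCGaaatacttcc
Cox7a1: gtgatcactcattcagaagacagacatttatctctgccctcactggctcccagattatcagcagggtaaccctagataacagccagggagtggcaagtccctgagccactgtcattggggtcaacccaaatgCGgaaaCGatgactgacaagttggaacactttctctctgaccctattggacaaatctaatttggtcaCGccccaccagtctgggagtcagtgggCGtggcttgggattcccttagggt
Cox7a2: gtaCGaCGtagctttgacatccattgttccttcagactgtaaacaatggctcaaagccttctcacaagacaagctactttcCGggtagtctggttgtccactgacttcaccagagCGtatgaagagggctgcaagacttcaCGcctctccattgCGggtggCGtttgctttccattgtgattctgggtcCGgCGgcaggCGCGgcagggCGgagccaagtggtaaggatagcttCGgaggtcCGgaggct
The muscle-type genes had 1 CG (Cox8b) and 4 (Cox7a1), and their broadly expressed counterparts 11 (Cox8a) and 14 (Cox7a2). Cox6a1, the broadly expressed form of the other pair named, had 26. Across 73 such windows, which covered 68 of the 85 nuclear symbols, the median was 14, against 6 over 32851 windows of all genes. Cox8b had the lowest number of the 73, and low numbers were not limited to muscle forms: the broadly expressed Ndufc2 had 4, and Cox7b and Uqcr10 had 5 each.

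Short motifs of factors known to regulate respiratory genes were searched on both strands of these windows. The NRF1 motif (GCGCA, any base, GCGC) was present upstream of 13 of the 68 members (19.1%), against 4.23% of 27025 genes. The GABPA core CCGGAAG was present in 12 (17.6%), against 7.83% of genes. The YY1 motif AAGATGGC and the estrogen-related receptor motif TCAAGGTCA were present in 1 each (1.47%), against 1.83% and 0.422% of genes. The TATA motif TATAAA was present in 6 members (8.82%), against 14.3% of genes. None of the 5 motifs was in the windows of Cox8b, Cox8a, Cox7a1 and Cox7a2, and Sdha and Ndufa8 were among those with the NRF1 motif. The NRF1 and GABPA motifs hold CG, which was more frequent in the windows of members than in all windows (median 14 against 6). Whether this accounts for their higher shares was not tested. A match is a stretch of letters and not a site of binding.

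The libraries held between 39209073 and 51075910 gene counts. Levels are given as CPM, the counts of a gene scaled to the same library total in each library, with edgeR's TMM factors. Progenitor genes were present throughout: the 11 progenitor markers, among them Sox2, Nes and Vim, were each above 1 CPM in at least 1 library and summed to 9767 to 11848 CPM in shLINE_Orf1, 8666 to 9435 in shLINE_Orf2, 8566 to 8895 in shLINE_MdV_I, 9101 to 9663 in shLINE_Orf1+LINE-1 and 8550 to 9939 in shControl. The 8 neuronal markers summed to between 335 and 521 CPM over all libraries, and of 6 microglial and blood markers, all under 1 CPM, Aif1 and Hbb-bs were at 0. Library shLINE_Orf1 replicate 1 and, for the nuclear members, library shControl replicate 2 stood apart from the other 13, as described next. Results that rest on these 2 libraries are given with and without them. LINE-1 RNA was not analysed here, so how far each shRNA lowered its target is not known from these values.

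Subunits of a complex end up in fixed proportions in the protein, but their RNA levels differed widely. Levels between genes are compared per length, as counts divided by annotated transcript length and scaled to the same sum in each library, and are given for shControl (mean ± SD, n = 3). In complex V, the catalytic beta subunit Atp5b stood at 3598 ± 192, the proton-channel subunit c gene Atp5g3 at 2471 ± 264 and its paralogs Atp5g1 and Atp5g2, which encode the same mature protein, at 882 ± 127 and 239 ± 42.7. In complex I the highest nuclear member was Ndufc2, an accessory subunit of the membrane arm, at 2101 ± 388, followed by Ndufa4, which is counted here with complex I by its symbol and is now placed in complex IV, at 1727 ± 292. Their spreads overlap. In complex III the ubiquinone-binding protein gene Uqcrb led with 1334 ± 220, and in complex IV Cox8a with 2037 ± 296. The iron-sulfur subunit Sdhb led complex II with 697 ± 77.1, above the flavoprotein Sdha at 345 ± 65.7. Over the tested nuclear members the median per-length level was 419 in complex I, 441 in complex II, 695 in complex III, 824 in complex IV and 922 in complex V. With the length of all exons of a gene in place of transcript length, Ndufc2 stood at 3322, Cox8a at 3160 and Atp5b at 2477.

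Mitochondrially encoded core subunits had the 3 highest mean levels, although the third of them, mt-Co1, overlaps the nuclear Atp5b in spread. Per length, mt-Co3 stood at 11750 ± 3121, mt-Co2 at 6818 ± 1404 and mt-Co1 at 3921 ± 388 in shControl, all of them core subunits of complex IV. Next among the mitochondrial members, and below Atp5b in mean, came mt-Atp6, the proton-channel subunit a of complex V, at 3160 ± 307 and mt-Cytb, the cytochrome b of complex III, at 3096 ± 267, which do not differ beyond their spread. The complex I subunits were lower: mt-Nd1 stood at 1822 ± 175, mt-Nd4 at 458 ± 25.4, mt-Nd2 at 416 ± 42.0, mt-Nd5 at 251 ± 29.3, mt-Nd3 at 247 ± 78.0, mt-Nd6 at 122 ± 38.1 and mt-Nd4l at 42.9 ± 6.57. Of these, mt-Nd4 and mt-Nd2 overlap in spread, as do mt-Nd5 and mt-Nd3. mt-Nd6 is the only one on the opposite strand of mitochondrial DNA, and whether the libraries kept strand is not stated, so its reads and those antisense to it cannot be told apart.

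The order of the mitochondrial levels also depends on how reads were divided among nuclear copies of mitochondrial DNA. For mt-Nd3, the annotated pseudogene Gm28438 on chromosome 1 (24612775 to 24613119) held 76.2% of the counts of mt-Nd3 and the copy together, between 70.2% and 80.1% per library. Over 345 bases the transcripts are 99.71% identical, and over 342 of these, aligned without a gap, they have 0 mismatches. The stretch below, bases 4 to 93 of mt-Nd3 (chrM:9462-9551, plus strand, GRCm38, from the GENCODE transcript), is shared by both, so reads from it cannot be assigned.
mt-Nd3: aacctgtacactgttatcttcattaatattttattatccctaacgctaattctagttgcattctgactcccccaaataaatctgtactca
Gm10925, a copy of mt-Atp6 with 0 mismatches over 678 bases, held 33.2% of the counts of that pair (18.8% to 42.3%). Gm29216 held 25.2% of those of mt-Co1, and Gm28437 4.92% of those of mt-Co3. Copies of mt-Co2, mt-Nd2 and mt-Nd5 held 0.0404% or less of their pairs on average, and those of mt-Nd4 and mt-Nd4l had 0 counts. Together the 11 copies held between 0.184% and 0.525% of all counts in a library, against 1.36% to 3.61% for the members themselves. mt-Atp8, which overlaps mt-Atp6, had between 0.0203 and 0.431 CPM and was below the filter on low counts.

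Summed over all members of a genome of origin, the oxidative phosphorylation transcripts did not separate the groups when all libraries were kept. They set 1 library apart for both genomes of origin. The nuclear members took 4.03%, 2.84% and 3.15% of all gene counts in shLINE_Orf1, 2.81%, 2.84% and 3.04% in shLINE_Orf2, 2.67%, 2.66% and 2.97% in shLINE_MdV_I, 2.80%, 2.87% and 2.93% in shLINE_Orf1+LINE-1, and 2.52%, 3.36% and 2.66% in shControl (replicates 1, 2 and 3). The mitochondrially encoded members took 3.61%, 1.80% and 1.47% in shLINE_Orf1, 1.42%, 1.77% and 1.97% in shLINE_Orf2, 1.40%, 1.37% and 1.61% in shLINE_MdV_I, 1.61%, 1.59% and 1.63% in shLINE_Orf1+LINE-1, and 1.73%, 2.02% and 1.36% in shControl. Replicate 1 of shLINE_Orf1 was highest of the 15 libraries for both, and replicate 2 of shControl second for both. For the mitochondrial members replicate 2 of shControl, at 2.02%, lay only just above replicate 3 of shLINE_Orf2, at 1.97%. Replicates 1 and 3 of shControl were the 2 lowest of all for the nuclear members, replicate 3 only just below the lowest shLINE_MdV_I library. For the mitochondrial members they lay in sixth and last place, so there the other values of the groups overlapped. Because bulk RNA was measured, fewer cells of a type and less RNA per cell cannot be told apart.

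**Figure D1:**
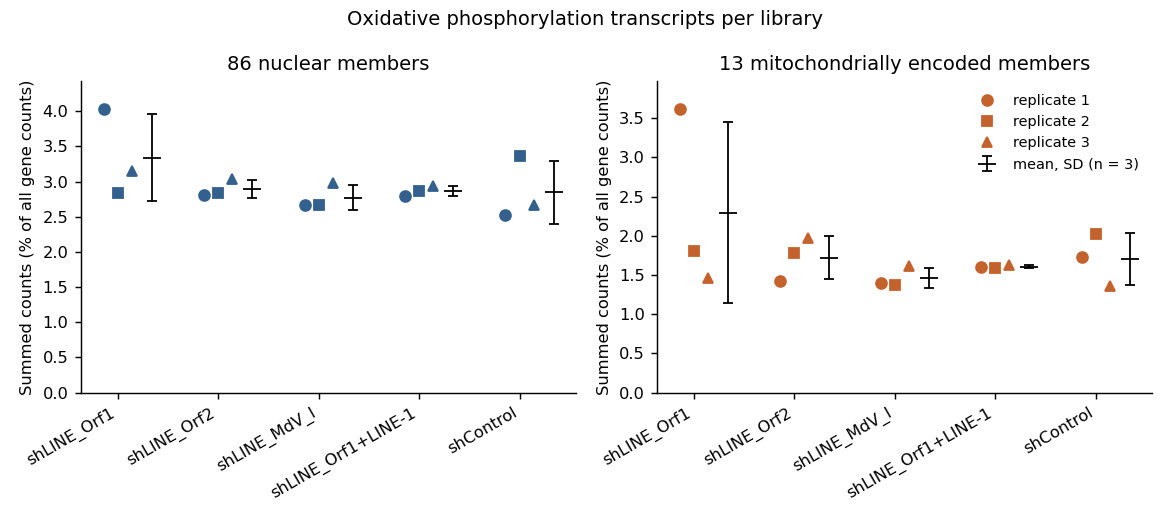
Summed counts of the 86 nuclear members (left) and the 13 mitochondrially encoded members (right), as a percent of all gene counts on the vertical axis, for each library by group, with the mean and SD beside (n = 3). Replicate 1 of shLINE_Orf1 lies at 4.03% and 3.61%, above all other libraries. For nuclear members shControl replicates 1 and 3 lie lowest, at 2.52% and 2.66%, and for mitochondrial members the other libraries overlap between groups.

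On average, nuclear members summed to 35598 ± 10222 CPM in shLINE_Orf1, 28605 ± 1732 in shLINE_Orf2, 26968 ± 1951 in shLINE_MdV_I, 28402 ± 761 in shLINE_Orf1+LINE-1 and 28666 ± 6229 in shControl (SD, n = 3). The mean of shLINE_Orf1 was 1.24 times that of shControl, and 1.19 times without shLINE_Orf1 replicate 1 and shControl replicate 2. Mitochondrial members summed to 24924 ± 15151 CPM in shLINE_Orf1, 17039 ± 2972 in shLINE_Orf2, 14219 ± 1393 in shLINE_MdV_I, 15920 ± 265 in shLINE_Orf1+LINE-1 and 17159 ± 4193 in shControl. Here the ratio of shLINE_Orf1 to shControl was 1.45 with all libraries and 1.08 without those 2. The ratio of mitochondrial to nuclear counts was 0.897 in shLINE_Orf1 replicate 1 and between 0.465 and 0.686 in the other 14 libraries, with 0.601 in shControl replicate 2.

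Every complex was higher in the library that stood apart, and complex II least. In shLINE_Orf1 replicate 1 the summed CPM of nuclear members lay above the shControl mean by 0.85 on the log2 scale in complex I, 0.50 in complex II, 0.75 in complex III, 0.88 in complex IV and 0.56 in complex V. The mitochondrial members lay above it by 1.28 in complex I, 1.39 in complex III, 1.27 in complex IV and 1.48 in complex V. Of the 83 tested nuclear members 74 were at their highest of the 15 libraries there, as were all 12 tested mitochondrial members. For 70 nuclear and 9 mitochondrial members shControl replicate 2 was second. At the other end, shControl replicate 1 held the lowest value of 54 nuclear members. For the nuclear complexes, replicates 1 and 3 of shControl lay between -0.34 and -0.06 on the log2 scale relative to the group's own mean. As a percent of all gene counts, nuclear complex II took at least 0.185% in shLINE_Orf1 and at most 0.1776% in shControl. In shLINE_Orf1+LINE-1 it took at least 0.1778%, only just above shControl. In CPM both groups overlapped shControl, whose replicate 2 stood at 1893.

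**Figure D2:**
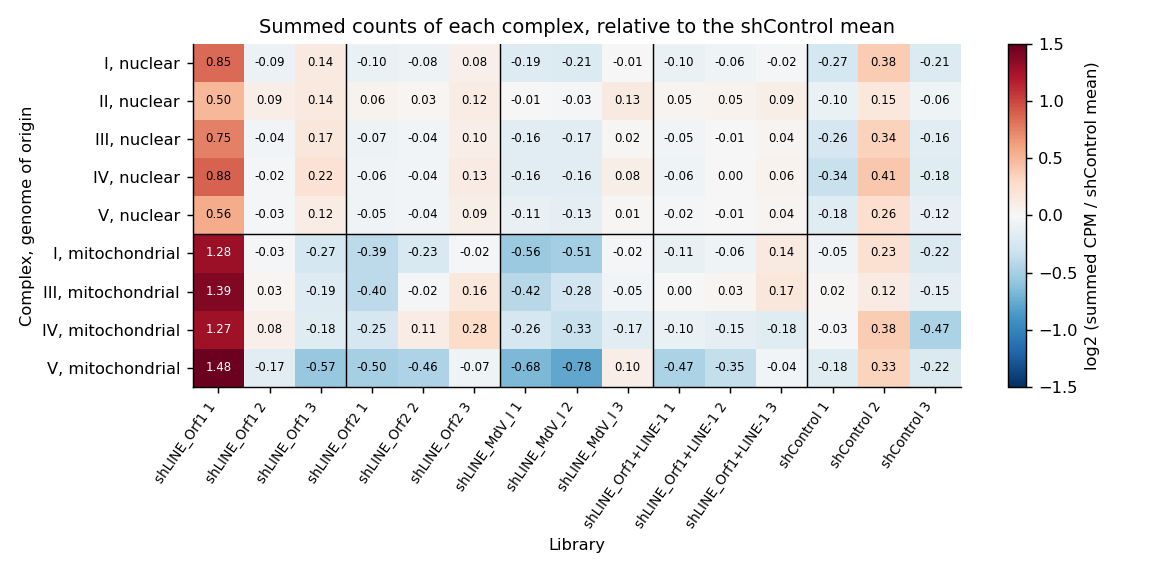
Summed CPM of the members of each complex and genome of origin (rows) in each library (columns, replicates 1 to 3 of each group), as log2 over the shControl mean, with red higher and blue lower. The first column, shLINE_Orf1 replicate 1, runs from 0.50 in complex II to 1.48 in mitochondrially encoded complex V.

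The first comparison, shLINE_Orf1 against shControl, is of the hairpin that another group received together with added LINE-1. Nearly all members had positive log2 fold changes, 91 of 95 against 48.6% of all tested genes, yet 0 members passed the test at an adjusted p under 0.05 (edgeR's quasi-likelihood test, Benjamini-Hochberg adjustment over 15147 genes), where 0.139% of all tested genes were called higher and 0.0396% lower (0.178% in either direction). At an unadjusted p under 0.05, 12 members were higher and 0 lower, against 5.33% and 5.20% of all genes. DESeq2 called 2 members, against 1.42% of all genes, and limma-voom with quality weights 7, against 4.21%. The median log2 fold change was 0.34 for the 83 nuclear and 0.52 for the 12 mitochondrial members, against -0.01 for all genes.

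Both medians depended on the libraries that stood apart, in opposite directions. Without shLINE_Orf1 replicate 1 they were 0.03 and -0.17, with 61 of 95 members positive (45.7% of all genes), and 2 members were higher and 0 lower at an unadjusted p under 0.05 (4.11% and 3.53% of all genes). Without shControl replicate 2 they were 0.58 and 0.69, with 92 positive (47.9% of all genes), and 76 members were higher and 0 lower (12.1% and 9.23% of all genes). Without both libraries they were 0.27 and 0.02, with 85 positive (48.3% of all genes), and 61 members were higher and 0 lower (7.43% and 8.38% of all genes). The libraries were left out after their levels of the members had been seen, and shControl is then made of the 2 libraries with the lowest nuclear sums, so these last counts depend on that choice and are given as a description.

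**Figure D3:**
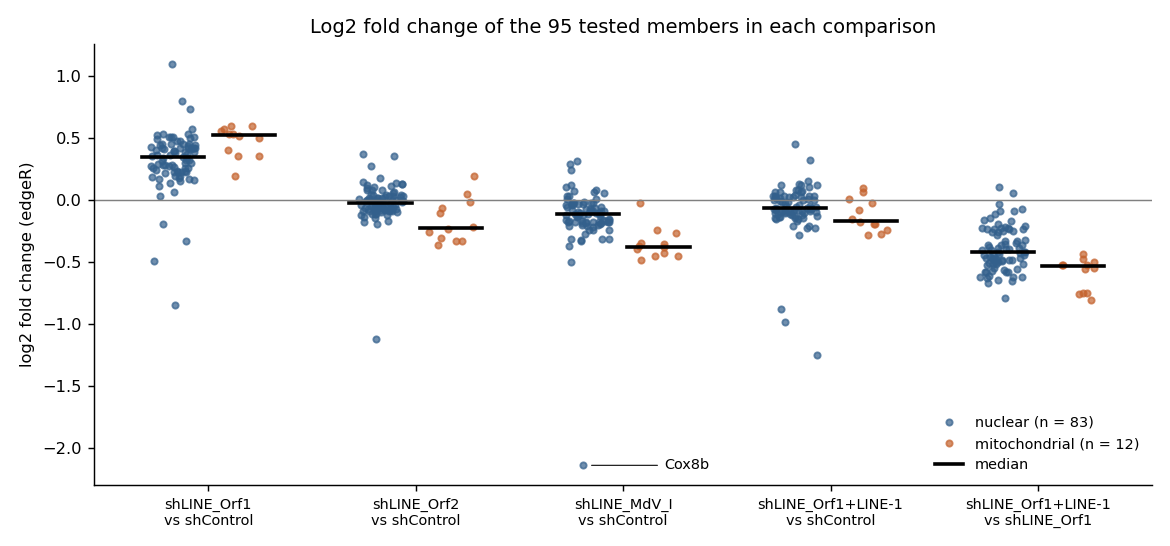
Log2 fold changes (edgeR) of the 95 tested members in the 5 comparisons, nuclear members in blue and mitochondrially encoded members in orange, with medians as bars. Medians run from 0.34 and 0.52 for shLINE_Orf1 against shControl to -0.42 and -0.54 for shLINE_Orf1+LINE-1 against shLINE_Orf1, and Cox8b lies lowest in shLINE_MdV_I.

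The 2 members nearest to a call in shLINE_Orf1 were nuclear subunits of complex IV. Cox4i1 (chromosome 8, 120668222 to 120674207), the broadly expressed form of an early-assembling nuclear subunit of complex IV, had 1221, 614 and 755 CPM in shLINE_Orf1, against 383, 675 and 429 CPM in shControl (log2 fold change 0.80 ± 0.22, SE, adjusted p = 0.211). Replicate 2 of shControl lay within the shLINE_Orf1 values and the other control libraries below all of them. Cox4i1 was called at an adjusted p of 0.0377 by DESeq2 and of 0.00108 by limma-voom with quality weights. Its head overlaps that of Emc8, a gene on the other strand, which had 156, 108 and 123 CPM in shLINE_Orf1 against 91.4, 131 and 109 CPM in shControl, so some reads may be divided between them.

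Cox6b2 (chromosome 7, 4751792 to 4753094), the testis form of a small complex IV subunit, had 47.3, 31.2 and 32.0 CPM in shLINE_Orf1, against 20.0, 29.3 and 17 CPM in shControl. All shLINE_Orf1 libraries lay above all control libraries, with a log2 fold change of 0.74 ± 0.20 (adjusted p = 0.196 by edgeR and 0.0373 by DESeq2). It had the smallest p of the members. Of the 95, 1 (Cox6b2) was wholly above and 1 (Ndufa4l2) wholly below shControl, where 4.86% and 4.41% of all tested genes were.

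Members of the other complexes had larger p-values. Ndufa10, an accessory subunit of complex I, had 374, 239 and 270 CPM in shLINE_Orf1, against 199, 258 and 216 CPM in shControl, with a log2 fold change of 0.39 ± 0.14 (adjusted p = 0.383). Uqcrc2, a core protein of complex III, had 522, 325 and 357 CPM in shLINE_Orf1, against 287, 337 and 294 CPM in shControl, with a log2 fold change of 0.39 ± 0.14 (adjusted p = 0.379). In each the first shLINE_Orf1 library was highest and the groups overlapped. Sdhb had 975, 468 and 561 CPM in shLINE_Orf1 and 389, 600 and 425 CPM in shControl (0.50 ± 0.21, adjusted p = 0.440), and Atp5o, which joins the catalytic head of ATP synthase to its stalk, 976, 484 and 593 CPM in shLINE_Orf1 and 417, 649 and 438 CPM in shControl (0.45 ± 0.21, adjusted p = 0.470). The larger catalytic subunits differed less in value: Sdha had 538, 660 and 598 CPM in shLINE_Orf1 and 602, 520 and 592 CPM in shControl, with shLINE_Orf1 replicate 1 below its own group's other libraries. Atp5b had 4276, 3625 and 3860 CPM in shLINE_Orf1 and 3171, 3913 and 3474 CPM in shControl (0.16 ± 0.10, adjusted p = 0.545).

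Among mitochondrial mRNAs, mt-Co1 had 8090, 4092 and 3297 CPM in shLINE_Orf1, against 3309, 4429 and 2991 CPM in shControl, a log2 fold change of 0.53 ± 0.25 (adjusted p = 0.467). mt-Cytb had 5420, 2117 and 1817 CPM in shLINE_Orf1 and 2094, 2251 and 1863 CPM in shControl. mt-Nd1 had 2733, 973 and 931 CPM in shLINE_Orf1 and 996, 1225 and 856 CPM in shControl. In all of them the first library stood alone, and replicates 2 and 3 of shLINE_Orf1 lay inside or below the control range. The 12 log2 fold changes ran from 0.19 for mt-Nd6 to 0.59 for mt-Nd1 and mt-Cytb.

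Comparing shLINE_MdV_I with shControl gave the only call among the members. Cox8b (chromosome 7, 140898945 to 140900446), the muscle form of a small subunit of complex IV, fell to 0.260, 0.304 and 0.418 CPM in shLINE_MdV_I, against 1.16, 2.09 and 1.09 CPM in shControl. This is a log2 fold change of -2.14 ± 0.41 (SE), with an adjusted p of 0.0238 in edgeR's quasi-likelihood test, and all shLINE_MdV_I libraries lay below all control libraries. The level is low: these values are 13, 15 and 20 counts in shLINE_MdV_I, against 54, 97 and 52 counts in shControl. Thus 1 of 95 members was called, lower, against 0.337% of all tested genes called lower and 0.257% higher (0.594% in either direction). The call was lost (adjusted p = 0.0758) when only these 2 groups were fitted, and in 5 of the 6 fits that left out 1 of their libraries, where adjusted p ran from 0.0323 to 0.178 and the log2 fold change from -2.34 to -1.78.

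In the other LINE-1 groups Cox8b was not called. It had 2.0, 0.701 and 1.1 CPM in shLINE_Orf1 (log2 fold change -0.20 ± 0.37, adjusted p = 0.831), 0.601, 0.663 and 0.727 CPM in shLINE_Orf2 (-1.12 ± 0.38, adjusted p = 0.429) and 0.513, 0.774 and 0.904 CPM in shLINE_Orf1+LINE-1 (-0.99 ± 0.38, adjusted p = 0.456). The values of shLINE_Orf2 and shLINE_Orf1+LINE-1 lay below all control libraries and above all shLINE_MdV_I libraries, while shLINE_Orf1 overlapped shControl. These comparisons share the control libraries. Markers of heart and skeletal muscle summed to 9.63 to 11 CPM in shLINE_MdV_I and 9.68 to 11.4 CPM in shControl. Of those 7 genes, Acta1, Ckm, Myh6, Tnnt2, Tnni3 and Mb were under 1 CPM in every library, and Myh7 lay between 8.22 and 10.9 CPM.

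Of the 95 members in shLINE_MdV_I, 13 had positive and 82 negative log2 fold changes, against 47.6% positive among all genes. Only Cox8b had an unadjusted p under 0.05, against 4.12% of all genes higher and 4.52% lower, and DESeq2 and limma-voom with quality weights each called 1 member, Cox8b, against 2.02% and 2.59% of all genes. The median was -0.12 for nuclear and -0.38 for mitochondrial members, against -0.01 for all genes. Without shControl replicate 2 the medians were 0.12 and -0.16, so the nuclear direction depended on that library, and 4 members were higher and 1 lower at an unadjusted p under 0.05 (4.18% and 5.28% of all genes). Without both libraries that stood apart 12 were higher and 1 lower (8.06% and 9.22%). In complex I the smallest p belonged to Ndufb6, an accessory subunit, with 292, 264 and 288 CPM in shLINE_MdV_I and 349, 483 and 260 CPM in shControl (-0.37 ± 0.23, adjusted p = 0.746). In complex III it belonged to Uqcrb, with 342, 325 and 354 CPM in shLINE_MdV_I and 400, 546 and 322 CPM in shControl (-0.31 ± 0.23, adjusted p = 0.813). In complex V it belonged to Atp5s, counted there by its symbol, with 18.2, 18.4 and 19.4 CPM in shLINE_MdV_I and 23.8, 26.3 and 20.1 CPM in shControl (-0.33 ± 0.16, adjusted p = 0.630). Of these 3 genes, the groups did not overlap in Atp5s. Of all members 1 (Sdha) was wholly above and 2 (Cox8b and Atp5s) wholly below shControl, against 8.22% and 6.65% of all genes.

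The 12 mitochondrial members all had negative values in shLINE_MdV_I. mt-Nd2 had 158, 162 and 239 CPM in shLINE_MdV_I, against 243, 309 and 211 CPM in shControl (-0.45 ± 0.31, adjusted p = 0.784), and mt-Nd4 had 223, 235 and 353 CPM in shLINE_MdV_I, against 361, 413 and 334 CPM in shControl (-0.45 ± 0.30, adjusted p = 0.772). Replicates 1 and 2 lay below the control range and replicate 3 inside it for both. mt-Co3 had 4549, 4018 and 4270 CPM in shLINE_MdV_I and 5540, 7324 and 3538 CPM in shControl (-0.35 ± 0.31, adjusted p = 0.858).

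In shLINE_Orf2 against shControl 0 members passed edgeR's test, against 0.0792% of all tested genes called higher and 0.112% lower (0.191% in either direction). At an unadjusted p under 0.05, 0 were higher and 1 (Cox8b) lower, against 3.78% and 3.22% of all genes. DESeq2 called 0 and limma-voom with quality weights 1 (Cox4i1), against 1.16% and 2.53% of all genes. Wholly above shControl was 1 member (Sdha) and wholly below it 1 (Cox8b), against 6.91% and 5.11% of all genes. The medians were -0.02 for nuclear and -0.22 for mitochondrial members, and 36 of 95 were positive, against 47.7% of all genes. Without shControl replicate 2 the medians were 0.21 and -0.00, and 5 members were higher and 0 lower at an unadjusted p under 0.05 (3.83% and 3.95% of all genes). Without both libraries that stood apart 43 were higher and 1 lower (7.86% and 7.84%). Mitochondrial mRNAs of complex I had negative values throughout, from -0.36 for mt-Nd4l to -0.01 for mt-Nd5, whereas mt-Co1 and mt-Co3 of complex IV had positive ones: mt-Co1 had 3413, 4249 and 4620 CPM in shLINE_Orf2 and 3309, 4429 and 2991 CPM in shControl (0.20 ± 0.24). Ndufs7, an iron-sulfur subunit of complex I, had 220, 216 and 238 CPM in shLINE_Orf2 and 160, 278 and 181 CPM in shControl. It was called in shLINE_Orf2 without the 2 libraries that stood apart (log2 fold change 0.40 ± 0.09, adjusted p = 0.0231).

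The comparison of shLINE_Orf1+LINE-1 with shLINE_Orf1 asks what adding LINE-1 changed. Here 0 members and 0 of all genes (0.0%) passed edgeR's test, DESeq2 also called 0 members (0.132% of all genes), and limma-voom with quality weights called 1 (Cox6b2), against 2.63% of all genes. At an unadjusted p under 0.05, 28 members were lower and 0 higher, against 6.07% and 5.04% of all genes. The medians were -0.42 for nuclear and -0.54 for mitochondrial members, and 2 of 95 were positive, against 49.1% of all genes. Without shLINE_Orf1 replicate 1 the medians were -0.09 and 0.02, and 1 member was lower and 0 higher at an unadjusted p under 0.05 (1.94% and 1.69% of all genes). The smallest p belonged to Cox6b2, with 23.7, 24.3 and 24.1 CPM in shLINE_Orf1+LINE-1 and 47.3, 31.2 and 32.0 CPM in shLINE_Orf1 (-0.61 ± 0.20, adjusted p = 0.422). Its groups did not overlap. In mt-Co3, shLINE_Orf1+LINE-1 had 5046, 4814 and 4459 CPM and shLINE_Orf1 13432, 5733 and 4876 CPM (-0.75 ± 0.31, adjusted p = 0.422). Of the members 12 lay wholly below shLINE_Orf1 and 0 wholly above it, against 7.95% and 9.46% of all genes.

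Against shControl, shLINE_Orf1+LINE-1 had 0 members called by edgeR, where 0.0726% of all tested genes were called higher and 0.066% lower (0.139% in either direction). DESeq2 called 0, against 1.38% of all genes, and limma-voom with quality weights 3 (Cox4i1, Cox6a2 and Cox7a1), against 3.59%. At an unadjusted p under 0.05, 0 members were higher and 3 lower, against 4.23% and 4.54% of all genes. The 3 were Cox6a2, Cox8b and Ndufa4l2. Wholly above shControl was 1 member (Sdha) and wholly below it 2 (Cox8b and Ndufa4l2), against 9.53% and 7.27% of all genes. Cox6a2 (chromosome 7, 128205435 to 128206387), the muscle form of a small complex IV subunit, had 1.09, 0.813 and 1.05 CPM in shLINE_Orf1+LINE-1, against 1.07, 2.33 and 2.04 CPM in shControl (-0.88 ± 0.28, adjusted p = 0.322). In the other groups it had 1.39, 1.1 and 1.38 CPM in shLINE_Orf1, 1.57, 1.83 and 2.55 CPM in shLINE_Orf2 and 2.2, 2.21 and 2.36 CPM in shLINE_MdV_I. Ndufa4l2, a paralog of Ndufa4 that low oxygen induces, lay between 0.0646 and 0.494 CPM over all libraries. The medians were -0.07 for nuclear and -0.17 for mitochondrial members, and 0.20 and 0.10 without shControl replicate 2, where 4 members were higher and 1 lower at an unadjusted p under 0.05 (3.96% and 5.43% of all genes). Without both libraries that stood apart 35 were higher and 1 lower (8.29% and 9.02%). Of 95 members 32 were positive, against 46.3% of all genes.

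A test of any difference among the 5 groups called 0 members, against 0.944% of all genes, with 5 at an unadjusted p under 0.05, against 12% of all genes. These 5 were Cox8b (adjusted p = 0.0603), Cox6a2 (adjusted p = 0.143), Cox6b2 (adjusted p = 0.225), Atp5s (adjusted p = 0.341) and Cox4i1 (adjusted p = 0.352), 4 of them nuclear subunits of complex IV. DESeq2 called 3 members, Cox8b, Cox6a2 and Cox6b2, and limma-voom with quality weights those 3, Cox4i1 and Cox7a1. Of all genes these fits called 6.01% and 10.2%, so the members' counts lie below those shares.

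**Figure D4:**
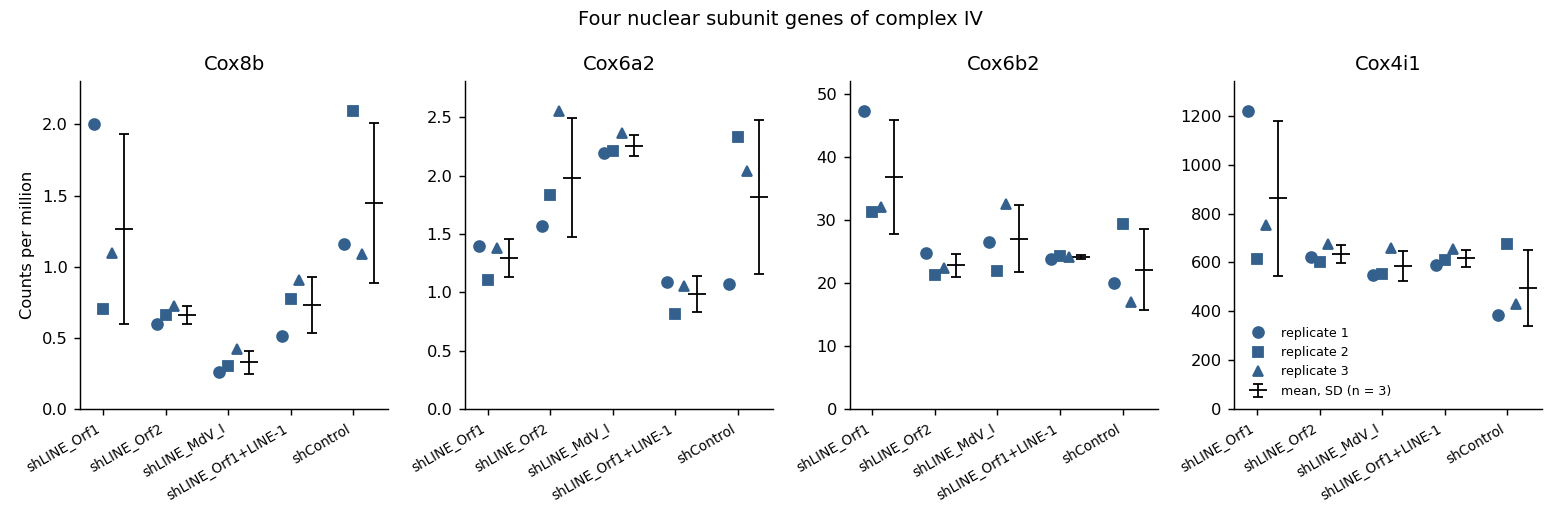
CPM of Cox8b, Cox6a2, Cox6b2 and Cox4i1 in each library by group, with the mean and SD beside (n = 3). In Cox8b the shLINE_MdV_I libraries lie between 0.260 and 0.418 and the shControl libraries between 1.09 and 2.09, and in Cox4i1 shControl replicates 1 and 3 lie at 383 and 429, below every other library.

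For Cox4i1, whether the test was passed depended on the fit and on which libraries were kept. With only shControl replicate 2 left out, edgeR called 0 members in any of the 4 comparisons with shControl. Replicates 1 and 3 of shControl, with 383 and 429 CPM, were the lowest of all 15 libraries, and the 12 libraries of the LINE-1 groups lay between 548 and 1221 CPM, with shControl replicate 2 at 675 CPM. Without shLINE_Orf1 replicate 1 and shControl replicate 2, Cox4i1 was higher in shLINE_Orf1 by 0.75 ± 0.11 (adjusted p = 0.00285), in shLINE_Orf2 by 0.64 ± 0.10 (adjusted p = 0.00371), in shLINE_MdV_I by 0.53 ± 0.10 (adjusted p = 0.0114) and in shLINE_Orf1+LINE-1 by 0.61 ± 0.10 on the log2 scale (adjusted p = 0.00533). All 4 rest on the same 2 control libraries, which are the lowest for Cox4i1 and remain because replicate 2 was set aside after its high values for the members were seen, so the adjusted p-values describe these libraries and are no independent support. In those fits 0.902% of all tested genes were called in shLINE_Orf1, 1.77% in shLINE_Orf2, 2.53% in shLINE_MdV_I and 2.30% in shLINE_Orf1+LINE-1. Cox6b2 was called as well in shLINE_Orf1 (0.77 ± 0.14, adjusted p = 0.0167) and in shLINE_MdV_I (0.55 ± 0.13, adjusted p = 0.0368), and Cox8b in shLINE_MdV_I (-1.77 ± 0.36, adjusted p = 0.0143). Emc8 had 102 to 156 CPM in the LINE-1 groups and 91.4, 131 and 109 CPM in shControl.

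Within paralog families the broadly expressed form dominated in every library, compared per length. Cox4i1 made up at least 99.9% of the Cox4 pair, with Cox4i2, the form of lung, at most 0.137%. Cox6a1 held at least 99.5% beside Cox6a2, and Cox8a at least 99.6% beside Cox8b, with Cox8c, a testis form, at 0 in all libraries. Cox7b2 had at most 0.194 CPM. The Cox7a family was more mixed: Cox7a2 held 80.3% to 86.1%, Cox7a2l, a factor that joins complexes III and IV, 12.8% to 19.1%, and Cox7a1 0.444% to 1.14%. Cox6b2 held 4.45% to 7.21% of the Cox6b pair. Among the subunit c genes, Atp5g3 held 66.7% to 71.6%, Atp5g1 22.6% to 26.6% and Atp5g2 5.60% to 8.11%, and near-identical copies, mainly the pseudogene Gm10175, held 64.9% of the counts of Atp5g2 and its copies together. Cox8b made up 0.0766% ± 0.0124 of its family in shLINE_MdV_I and 0.328% ± 0.0543 in shControl (SD, n = 3). The muscle form Cox7a1 went the other way in mean share, with 0.634% ± 0.169 of its family in shControl. Its share was 0.966% ± 0.156 in shLINE_Orf1, 0.896% ± 0.0739 in shLINE_Orf2, 0.678% ± 0.164 in shLINE_MdV_I and 0.936% ± 0.0683 in shLINE_Orf1+LINE-1. Of these groups only shLINE_MdV_I overlapped shControl, and edgeR did not call Cox7a1.

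Transcript length moved with the deviation of the 2 libraries, and of some others. Over all tested genes, deviation from the mean of all libraries was ranked against exonic length (Spearman correlation). The correlation was -0.41 in shLINE_Orf1 replicate 1, -0.39 in shControl replicate 2 and -0.24 in shLINE_Orf1 replicate 3. In shControl replicates 1 and 3 it was 0.37 and 0.21, so the controls kept without both libraries lean to long genes. The remaining libraries lay between -0.074 and 0.20. The tested nuclear members had a median main transcript of 704 bases, against 2826 bases over all genes tested. In shLINE_Orf1 replicate 1 the 58 nuclear members under 1000 bases lay a median 0.97 above the shControl mean on the log2 scale, and the 25 longer ones 0.64. In shControl replicate 2 the medians were 0.46 and 0.28. Over all tested genes, the 1361 under 1000 bases lay 0.65 above that mean in shLINE_Orf1 replicate 1, and the 13786 longer ones -0.08, with 0.36 and -0.04 in shControl replicate 2. After a correction for length within each library, the median in shLINE_Orf1 against shControl was 0.23 for nuclear and 0.23 for mitochondrial members. Without both libraries that stood apart, the nuclear median was 0.16 with this correction and 0.27 without it. The part of length in these differences was not tested further.

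**Figure D5:**
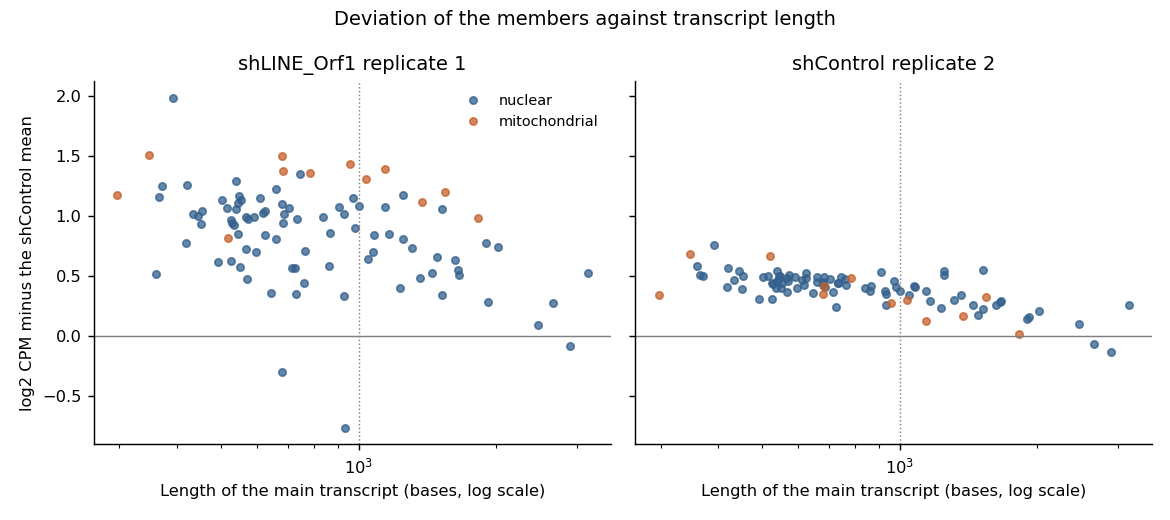
Log2 CPM of each tested member minus its shControl mean (vertical axis) against the length of its main transcript in bases (horizontal axis, log scale), in shLINE_Orf1 replicate 1 (left) and shControl replicate 2 (right), with a dotted line at 1000 bases. Short members lie higher than long ones, with nuclear medians of 0.97 and 0.64 on the left and 0.46 and 0.28 on the right.

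Genes that serve the complexes were described by 5 further lists with 150 tested genes, of which 0 passed edgeR's test in any of the 5 comparisons with all libraries. Beside this, 24 were higher and 0 lower at an unadjusted p under 0.05 in shLINE_Orf1 against shControl, where 5.33% and 5.20% of all genes were. The counts were 5 and 0 in shLINE_Orf2 (3.78% and 3.22% of all genes), 5 and 2 in shLINE_MdV_I (4.12% and 4.52%) and 7 and 1 in shLINE_Orf1+LINE-1 (4.23% and 4.54%). In shLINE_Orf1+LINE-1 against shLINE_Orf1 they were 2 and 17 (5.04% and 6.07%). Without shLINE_Orf1 replicate 1, 9 were higher and 0 lower in shLINE_Orf1 against shControl (4.11% and 3.53% of all genes), and 1 higher and 2 lower in shLINE_Orf1+LINE-1 against shLINE_Orf1 (1.69% and 1.94%). Without shControl replicate 2, 59 were higher and 1 lower in shLINE_Orf1 against shControl (12.1% and 9.23% of all genes). Without both libraries that stood apart, 36 were higher and 1 lower there (7.43% and 8.38%). The counts were then 34 and 3 in shLINE_Orf2 (7.86% and 7.84%), 19 and 2 in shLINE_MdV_I (8.06% and 9.22%) and 30 and 2 in shLINE_Orf1+LINE-1 (8.29% and 9.02%). These fits share the same 2 control libraries. In them 1 gene was called in shLINE_Orf1 (Slc25a3), 3 in shLINE_Orf2 (Gabpa, Higd1a and Slc25a3), 0 in shLINE_MdV_I and 2 in shLINE_Orf1+LINE-1 (Fastkd3 and Slc25a3). Of all genes, 0.902%, 1.77%, 2.53% and 2.30% were called in these 4 comparisons. With all libraries, in shLINE_Orf1 against shControl 120 of the 150 were positive, against 48.6% of all genes, and the median log2 fold change was 0.25 for 55 assembly factors and chaperones (50 positive), 0.19 for 25 electron carriers and partners (21 positive), 0.17 for 23 genes of the tricarboxylic acid cycle (22 positive), 0.11 for 30 genes of mitochondrial DNA transcription, replication and RNA handling (21 positive) and -0.08 for 17 nuclear regulators (6 positive). Cycs, which encodes cytochrome c, had 1244, 699 and 664 CPM in shLINE_Orf1 and 701, 873 and 490 CPM in shControl (0.34 ± 0.23, adjusted p = 0.572). Tfam, which packages mitochondrial DNA and helps to start its transcription, had 97.8, 60.7 and 72.3 CPM in shLINE_Orf1 and 67.9, 72.3 and 63.6 CPM in shControl (0.18 ± 0.13). The regulators Nrf1, Gabpa and the coactivator Ppargc1a had log2 fold changes of 0.05 ± 0.08, -0.14 ± 0.14 and 0.26 ± 0.16 in shLINE_Orf1 against shControl, and 0.07 ± 0.08, -0.14 ± 0.14 and 0.07 ± 0.16 in shLINE_MdV_I. Lrpprc, which stabilizes mitochondrial mRNAs, had 68.1, 91.1 and 92.3 CPM in shLINE_Orf1 and 93.3, 73.0 and 85.8 CPM in shControl, so it was lowest in shLINE_Orf1 replicate 1, where mitochondrial mRNAs were highest. Longer genes lay lower in that library (Spearman correlation of deviation with exonic length -0.41), and a link of Lrpprc with these mRNAs was not tested. Lars2, annotated as the mitochondrial leucyl-tRNA synthetase, held 5.88%, 3.14% and 3.71% of counts in shLINE_Orf1, against 2.60%, 4.62% and 2.91% in shControl, and so was highest in the same 2 libraries. Whether all of these reads come from Lars2 was not tested.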

How the data were processed

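RNA was measured in 15 libraries (5 groups of 3), made with a SMART-seq2 type protocol per the labels. The authors deposited a table of expected counts per transcript, estimated with RSEM after cutadapt trimming on mm10, per the submitters' processing notes (tool versions not given in the sources). The authors also deposited a table of their own comparison with estimates (score columns, scale not stated) and p-values. Groups came from the sample titles. Transcripts were matched to GENCODE M21 without version suffix (110203 of 111462; the 1259 unmatched held 0.583% to 0.637% of counts), summed per gene and rounded to whole numbers. Of these genes, 15147 passed filterByExpr (minimum count 10). All 5 groups were fitted together in edgeR 4.0.16 (TMM, robust quasi-likelihood test, common biological coefficient of variation 0.158), with Benjamini-Hochberg adjustment over all 15147 genes and a threshold of 0.05. The procedure was run on simulated counts with known changes. These held no deviation of whole libraries, so they do not bear on the libraries that stand apart. DESeq2 1.42.0 and limma 3.58.1 (voom) were alternatives, with other scalings, filters, a length correction (loess) and libraries left out. Leaving out both libraries that stand apart was added after the data were seen. Copies were found with BLAST 2.17.0 (at least 95% identity over 100 bases). Members and lists were chosen with earlier results of these data known. The text names called members, the highest nuclear member of each complex, those with the smallest p in each complex in shLINE_Orf1 and shLINE_MdV_I, mitochondrial mRNAs, members under the filter, tissue-specific paralogs, Cox4i1 and a few regulators; other genes, such as Ndufs7 and Emc8, were picked after their values were seen. Same-numbered replicates did not deviate together and were not treated as pairs. Not tested for low counts were Cox7b2, Cox8c, mt-Atp8 and a readthrough gene that shares the symbol Atp5o. The number of reads limits precision mainly for genes near 1 CPM.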

Additional observations from a re-analysis of the deposited data

How the results depend on the processing

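Of 348 values under other settings for the counts, medians, sums and levels, 295 stayed within the spread or within 1.5 times the count, and 172 of 200 medians kept their sign. That spread is wide, so the first number does not measure stability. For the nuclear median in shLINE_Orf1, 0.34 as reported, the spread was 0.40. Values of 0.03 without shLINE_Orf1 replicate 1 and 0.58 without shControl replicate 2 thus count as within it. Members called in shLINE_Orf1, 0 as reported, numbered 2 with DESeq2, 7 with limma-voom with quality weights, 1 with a length correction, 2 without both libraries that stand apart and 1 with both changes. In shLINE_Orf2 (0 as reported) they numbered 1 with limma-voom, 2 without both libraries and 2 with length correction too. In shLINE_MdV_I (1 as reported) they numbered 0 when only the compared groups were fitted, 3 without both libraries and 2 with length correction too, and 0 to 1 with 1 library left out. In shLINE_Orf1+LINE-1 (0 as reported) they numbered 3 with limma-voom, 1 without both libraries and 1 with length correction too, and against shLINE_Orf1 1 with limma-voom. For any difference (0 as reported) they numbered 1 without a filter, 3 with DESeq2, 5 with limma-voom, 1 with the last number of the library description as covariate, 2 with length correction, 4 without both libraries and 4 with length correction too, and 0 to 1 with 1 library left out.

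With a replicate block, members called in shLINE_MdV_I numbered 0 and no other count of called members changed; with a length correction and the replicate block, 1 was called for any difference. Same-numbered libraries did not deviate together (median correlation -0.022 over 30 pairs, range -0.27 to 0.18), so the numbers do not pair the samples. The block left 4, 4, 55, 2 and 0 of all genes called in the 5 comparisons.

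Medians of log2 fold changes, nuclear then mitochondrial, with 1 library left out ran from 0.03 to 0.58 and -0.17 to 0.80 in shLINE_Orf1, -0.14 to 0.21 and -0.31 to -0.00 in shLINE_Orf2, -0.23 to 0.12 and -0.53 to -0.16 in shLINE_MdV_I, -0.18 to 0.20 and -0.20 to 0.10 in shLINE_Orf1+LINE-1, and -0.61 to -0.092 and -0.81 to 0.02 for shLINE_Orf1+LINE-1 against shLINE_Orf1. The description number as covariate gave -0.42 and -0.94 in shLINE_MdV_I. In shLINE_Orf1, where the covariate sets only replicate 1 apart, it gave 0.15 and 0.05, against 0.34 and 0.52 as reported. Limma-voom gave mitochondrial medians of -0.039 in shLINE_Orf1, 0.13 in shLINE_Orf1+LINE-1 and 0.11 against shLINE_Orf1, each of the opposite sign to that reported. Without both libraries the medians in shLINE_Orf1+LINE-1 were 0.20 and 0.10, and the nuclear one against shLINE_Orf1 -0.074. With length correction as well, the mitochondrial median in shLINE_Orf1 was -0.14, and against shLINE_Orf1 the medians were -0.037 and 0.063. The cause of these shifts was not tested.

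Sums as a percent of a total without mitochondrially encoded genes and Lars2 were 3.05 (nuclear, shLINE_Orf2), 3.02 (nuclear, shLINE_Orf1+LINE-1) and 1.69 (mitochondrial, shLINE_Orf1+LINE-1). With nuclear copies added, mitochondrial sums were 1.66% in shLINE_MdV_I and 1.82% in shLINE_Orf1+LINE-1. Per exonic length, Ndufc2 stood at 3322, Cox8a at 3160 and Atp5b at 2477. Depth limits Cox8b most, which rests on 13 to 20 counts in the shLINE_MdV_I libraries.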

Other observations

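The authors' deposited table of the young LINE-1 effect lists 93 of the members, with an adjusted p of 1 for all its 17921 genes. In the authors' deposited table, an unadjusted p under 0.05 was given to 4 members (2.66% of all genes had one): Sdhc (estimate -0.20), Atp5k (-1.47), Ndufa6 (-0.23) and mt-Co1 (-0.24). The scale and coding of these estimates are not named, so their direction is not read here. Of the members, 73 had a negative estimate in the authors' deposited table (78.5%), against 39.1% of all genes.

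Ndufv3, which encodes a subunit of the NADH-binding arm of complex I, has a long and a short transcript of 1582 and 493 bases. The long form took 9.63% ± 2.72 of all transcripts of the gene per length in shLINE_Orf1, 13.1% ± 1.42 in shLINE_Orf2, 11% ± 1.06 in shLINE_MdV_I, 12.7% ± 1.13 in shLINE_Orf1+LINE-1 and 11.46% ± 3.59 in shControl (SD, n = 3), and the groups overlap.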
